A study of Homo sapiens with 26 samples.

Results

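Huh7, a human liver cancer (hepatocellular carcinoma) cell line, received fresh medium with 0.3 μM PF-06446846 or with vehicle (0.5% DMSO) and was harvested 10 min later for ribosome profiling (ribo-seq), with cycloheximide added at harvest in both conditions. The comparison holds 6 of the 26 libraries of the series, 3 per condition, taken by their labelled dose, time and library type. In ribo-seq, nuclease digests the mRNA outside ribosomes and the protected pieces are sequenced, so that each read, or footprint, places a ribosome on a codon. The files gave 7775919 to 21498137 reads on coding sequences (CDS) in the 0.3 μM libraries and 8489374 to 17234235 in vehicle. The labels number the replicates, which the study calls biological, and p-values describe the spread between these libraries.

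PF-06446846 is a small molecule that acts on the translating ribosome and arrests it on particular nascent chains. A ribosome leaves footprints at the codons where it pauses, and those behind a block cannot pass, so a stall on an mRNA appears as footprints gained upstream and footprints lost downstream of a position in the CDS. Ribosomes already past the block run off within minutes, so that a short treatment can record the arrest itself.

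Genes in which the same compound arrests ribosomes were taken from a list of the study, drawn up from libraries of a higher dose (1.5 μM) and a later time (60 min). It holds 21 genes analysed here, called stall genes below, of which 1 enters the counts without its own values. For each, a bound on the 3′ side of the stall was computed from the 60-min libraries of 1.5 μM and vehicle. It is the codon at which the cumulative share of reads in treated cells exceeded that of vehicle the most (Dmax). By the study Dmax lies 3′ to the last stall site, and reads 3′ to the stall below are those after Dmax. None of the 6 libraries compared here entered those positions. Hepatocyte transcripts were abundant, with AFP, the fetal plasma protein typical of hepatoma cells, at 9820 RPM (reads per 1000000 CDS reads) or more and SERPINA1 at 2547 to 3732 RPM. Of 9 markers of other cell types, CD68 and PECAM1 had a named transcript, and the summed level of both was 57.4 to 67.3 RPM in 0.3 μM and 62.0 to 67.1 RPM in vehicle.

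Summed over the whole CDS, no transcript passed the test between 0.3 μM and vehicle after 10 min, and stall genes were 4 of the 5 lower ones with the lowest p. With edgeR's quasi-likelihood test, 0 of 11131 transcripts (0%) passed an FDR of 0.1, while 69 were lower (0.62%) and 35 higher (0.314%) at an unadjusted p under 0.05, 0.934% in all. DESeq2 called 0 as well, with 58 (0.521%) at an unadjusted p under 0.05. Among transcripts with a mean of at least 50 reads and 1 direction in every replicate pair, the 5 lower ones with the lowest p were MDK, HSD17B11, AMD1, LTBP3 and MST1, of which all but AMD1 are stall genes. AMD1, which makes the decarboxylated donor for polyamine synthesis, read 44.3, 35.9 and 37.2 CPM (counts per 1000000, scaled for composition) with 0.3 μM against 52.1, 51.8 and 58.0 in vehicle, without overlap (log2 fold change -0.46 ± 0.13 SE). The 5 higher ones by the same rule were DOK1, an adaptor of tyrosine kinases (0.72 ± 0.25), LIN37, a subunit of a cell cycle repressor complex (0.52 ± 0.18), ZBTB17, a transcription factor (0.45 ± 0.17), FBXW8, a ubiquitin ligase subunit (0.32 ± 0.13), and ADH5, an alcohol dehydrogenase that clears formaldehyde (0.32 ± 0.12). None of these 10 passed the FDR with either tool. The groups did not overlap in any of them, as in 2.59% of all transcripts that were lower and 1.99% that were higher.

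The footprints that lie 3′ to the stall were then counted for the stall genes, and those after codon 50 for every other transcript, in 1 table of 10855 transcripts. Of the 21 stall genes, 20 had fewer such reads with 0.3 μM and 1 had more, with a median log2 fold change of -0.42 beside 0.00 over all transcripts. With edgeR, 0 of 10855 (0%) passed the FDR, at 117 (1.08%) with an unadjusted p under 0.05. At that unadjusted p, 14 of the 21 stall genes were lower and 0 higher, beside 0.737% of all transcripts that were lower and 0.341% that were higher. Leaving out 1 library, the 14 became 10 (without 0.3 μM replicate 1) to 16 (without 0.3 μM replicate 2) and the 117 became 92 to 420 (without vehicle replicate 2 and 0.3 μM replicate 1), with 198 without vehicle replicate 3. The 3 lowest p-values in the table belonged to MDK, RPL27 and HSD17B11, and DESeq2 called these 3 of the 21 (adjusted p 0.0024, 0.0052 and 0.012), where it called 0.0368% of the table. In 14 stall genes every 0.3 μM library lay under every vehicle library, which 2.86% of all transcripts did.

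MDK encodes midkine, a secreted heparin-binding growth factor. Its reads 3′ to codon 32 came to 101, 97.6 and 124 CPM in the 3 libraries of 0.3 μM and to 152.5, 222 and 222 CPM in vehicle, so that the groups did not overlap. The mean was 45.9% lower (log2 fold change -0.89 ± 0.16), the lowest p of the table. RPL27, a protein of the large ribosomal subunit, read 644, 585.5 and 733 CPM with 0.3 μM and 954, 1192 and 1023 CPM in vehicle. It was 38.1% lower (-0.69 ± 0.13), again without overlap. HSD17B11, a hydroxysteroid dehydrogenase of the endoplasmic reticulum (ER) and lipid droplets, read 68.9, 81.5 and 73.8 CPM against 119, 147 and 106.5 CPM, or 39.7% less (-0.73 ± 0.14).

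**Figure D1:**
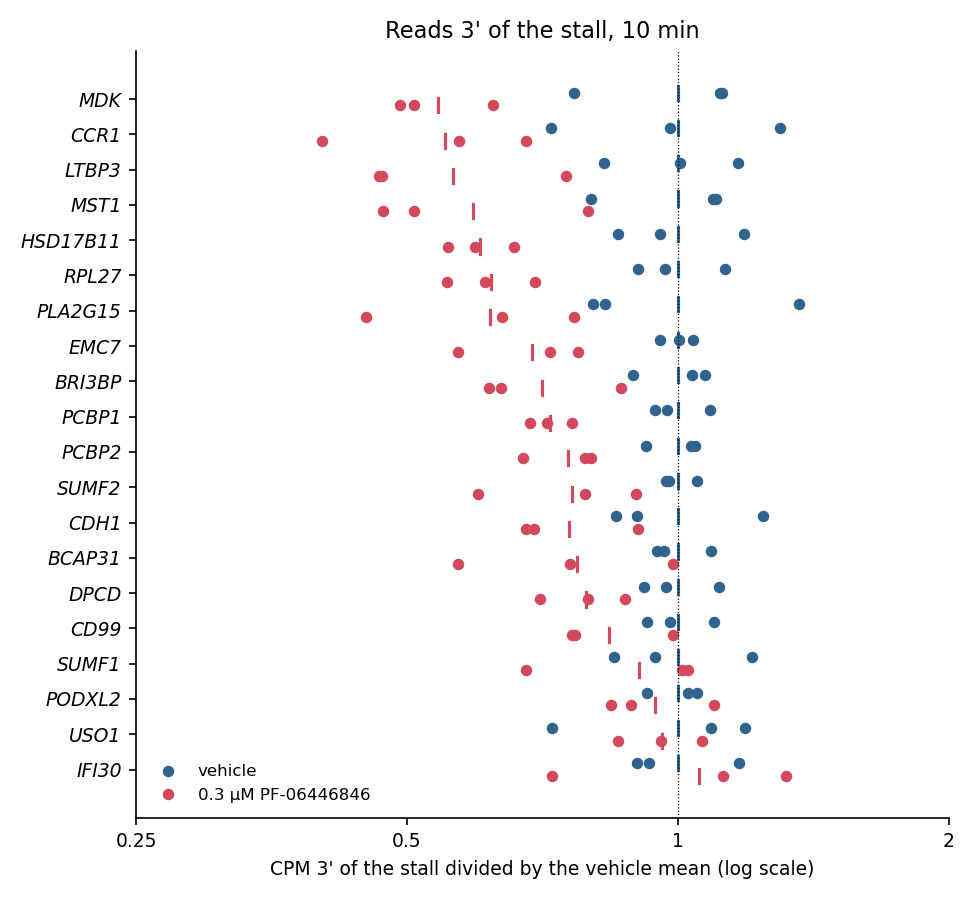
Reads 3′ to the stall in each 0.3 μM and vehicle library after 10 min, in CPM divided by the gene's vehicle mean (x axis, log scale), for 20 of the 21 stall genes in order of their log2 fold change. Points are libraries and ticks the means of 3. In 13 of the 20 genes the 0.3 μM points all lie to the left of the vehicle points, and in IFI30, at the bottom, the mean lies to the right.

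PCBP1 and PCBP2, which bind C-rich RNA, were lower by 27.9% and 24.6%, with 549, 526 and 586 CPM against 747, 724 and 833 CPM for PCBP1. PCBP2 read 574, 683 and 673 CPM against 881, 787 and 891 CPM. Neither overlapped between groups. The study states that most reads of PCBP1 and PCBP2 map ambiguously, so the genes are not independent of each other.

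Among membrane and ER proteins, EMC7, a subunit of the complex that inserts membrane proteins, read 54.5, 74.1 and 69.0 CPM with 0.3 μM and 91.5, 96.0 and 99.6 CPM in vehicle (-0.54 ± 0.14). CCR1, a chemokine receptor, had the second largest size of change among the stall genes (-0.85 ± 0.30) but only 1.98 to 3.35 CPM against 3.56 to 6.40 CPM. BCAP31, an ER membrane protein that escorts others toward export, overlapped between groups, with 153, 264 and 203 CPM against 258, 253 and 291 CPM. CDH1, the cell adhesion protein E-cadherin, overlapped as well (-0.39 ± 0.17), and so did CD99, a surface glycoprotein (-0.25 ± 0.14).

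LTBP3, which holds latent TGF-beta in the matrix, was 43.8% lower (13.98, 22.4 and 13.8 CPM against 29.9, 24.6 and 34.7 CPM), and MST1, the secreted ligand of a macrophage receptor, 40.8% lower. The lysosomal phospholipase PLA2G15 (-0.68 ± 0.26) and the ER factor SUMF2 (-0.40 ± 0.15) did not overlap either, nor did BRI3BP (-0.51 ± 0.16) and DPCD (-0.33 ± 0.16).

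At the other end, IFI30, a lysosomal thiol reductase, read 60.3, 110 and 93.4 CPM against 75.0, 77.3 and 97.3 CPM (0.08 ± 0.20). USO1, a Golgi tether (-0.06 ± 0.17), PODXL2, a sialomucin (-0.08 ± 0.14), and SUMF1, which activates sulfatases (-0.13 ± 0.19), overlapped between groups too. USO1 turned to 0.07 without vehicle replicate 2 and to 0.01 without 0.3 μM replicate 3. SUMF1 turned to 0.03 without 0.3 μM replicate 1 and to 0.01 without vehicle replicate 3, and IFI30 to -0.11 without 0.3 μM replicate 2.

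The share of a gene's footprints that lies at or before the Dmax codon was compared next. It is a ratio within each library, so that neither sequencing depth nor the level of the mRNA enters it. The mean share was higher with 0.3 μM in all 21 stall genes. Its median over the genes was 22.5% with 0.3 μM, 11.7% in vehicle and, in the 1.5 μM libraries of the same time, 44.6%. In 14 genes the 3 shares of 0.3 μM all exceeded the 3 of vehicle. For comparison, 8614 transcripts had at least 100 codons and 50 reads in each library. They include 20 of the 21 stall genes, without CCR1, which is among the 14 but has fewer reads. Among the 8614, the 0.3 μM shares up to a Dmax codon set in the same way all exceeded vehicle in 2.97%. Those in the first 50 codons did so in 4.2%.

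RPL27 had the largest difference in share. In the 0.3 μM libraries, 31.6%, 50.9% and 42.2% of its footprints lay in its first 28 codons, against 16.8%, 11.2% and 17.9% in vehicle, so that the lowest treated library stood well above the highest vehicle library. The 1.5 μM libraries gave 78.5%, 75.2% and 75.0%. In HSD17B11 the share up to codon 18 was 24.6%, 15.6% and 24.0% against 7.67%, 6.14% and 7.35%. PCBP2 gave 20.2%, 24.8% and 19.3% against 8.54%, 8.63% and 8.09% up to codon 34. EMC7, MDK, PCBP1, PLA2G15 and SUMF1 also separated, with means of 21.4%, 22.03%, 20.1%, 41.02% and 14.6% against 8.52%, 10.2%, 8.51%, 21.2% and 6.51% in vehicle.

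CDH1 is unlike these, since its Dmax lies at codon 742 of 883. Its share was 86.6%, 84.2% and 86.6% with 0.3 μM and 82.8%, 79.5% and 82.3% in vehicle. In USO1 (36.6% ± 2.31 against 35.6% ± 3.42, SD, n = 3) and PODXL2 (28.6% ± 4.09 against 27.3% ± 1.42) the groups overlapped. They did so too in CD99, BCAP31, LTBP3, DPCD and IFI30. The share of PODXL2 runs to codon 172, far past its largest rise with 1.5 μM after 60 min, at codon 31. In a second set of 60-min libraries of the study its Dmax lay at codon 58. The compound at 1.5 μM gave shares above every 0.3 μM library in 20 of the 21 genes, the exception being CCR1, and in 12% of the 8614 transcripts. The 1.5 μM values are set beside the same 3 vehicle libraries.

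**Figure D2:**
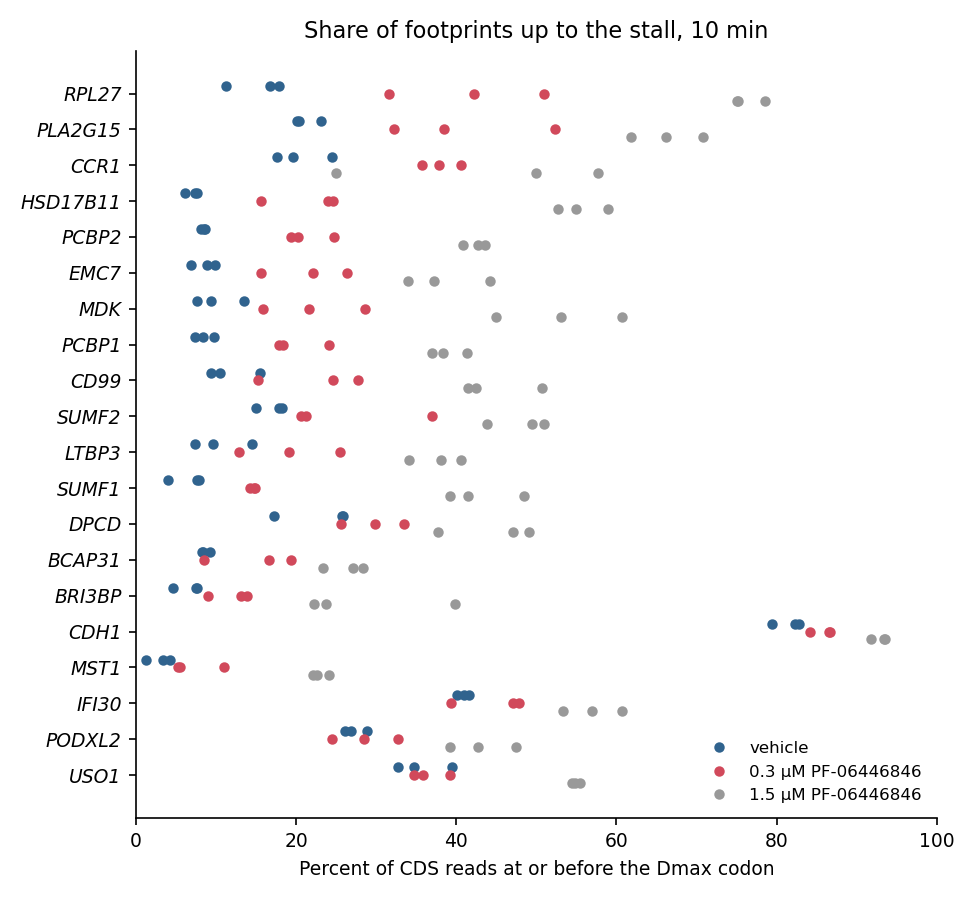
Percent of a gene's CDS reads at or before its Dmax codon in each library after 10 min (x axis), for 20 of the 21 stall genes in order of the difference between 0.3 μM and vehicle. Points are libraries, 3 per condition, and the 0.3 μM points lie between vehicle and 1.5 μM in most genes, from RPL27 at the top to USO1 at the bottom.

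A scan of single codons did not use the list of genes or their positions. It tested 94996 codons with a mean of at least 20 reads over the 6 libraries. With edgeR, 0 (0%) passed the FDR, at 461 higher (0.485%) and 255 lower (0.268%) with an unadjusted p under 0.05. Their sum of 716 depended on single libraries, at 176 without vehicle replicate 2, 353 without 0.3 μM replicate 3, 1826 without vehicle replicate 3 and 8837 without 0.3 μM replicate 1, with 0 past the FDR in each. With the replicate number as a block the sum was 313. DESeq2 called 10 codons (0.0105%), all higher with 0.3 μM, at 874 with an unadjusted p under 0.05. Of the 10, 9 lay at or before the Dmax codon of 5 stall genes, and the other lay in FGA. With edgeR the 20 lowest p-values held 19 codons of stall genes, all at or before Dmax. The minimum counts the 0.3 μM reads too, and 4 of the 10 calls fell short of it in vehicle alone. A rise can thus be a condition of being tested, and both counts are a description. Codons of 1 gene share its ribosomes and are not independent of each other.

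The stall genes had 75 tested codons at or before Dmax, in 10 genes. Their median log2 fold change was 0.92, beside 0.06 over all codons. Of the 75, 29 were higher at an unadjusted p under 0.05, in 8 genes, and 0 were lower, beside 0.485% and 0.268% of all codons tested. In 31 the groups did not overlap with 0.3 μM higher, as in 1.7% of all codons tested. RPL27, PCBP1 and PCBP2 held 57 of the 75 and 24 of the 29. By the study, most reads of PCBP1 and PCBP2 map ambiguously, so their codons can share reads. The sharing is not complete, as codon 32 held 654 reads with 0.3 μM in PCBP2 and 251 in PCBP1. Since the 0.3 μM reads enter the minimum, a codon can be tested through its rise alone, and these counts are a description. By a minimum of 20 reads in vehicle alone, which 94014 codons met, the stall genes had 60 codons at or before Dmax in 7 genes. Their median was 0.54, beside -0.03 over all such codons, 17 were higher and 0 lower at an unadjusted p under 0.05 (0.173% of all higher), and 19 did not overlap (1.07% of all). The 497 tested codons after Dmax, in 12 stall genes, had a median of -0.49. Of them 38 were lower and 0 higher at that p, beside 0.268% lower and 0.485% higher of all codons tested. Their reads are among those counted 3′ to the stall above.

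**Figure D3:**
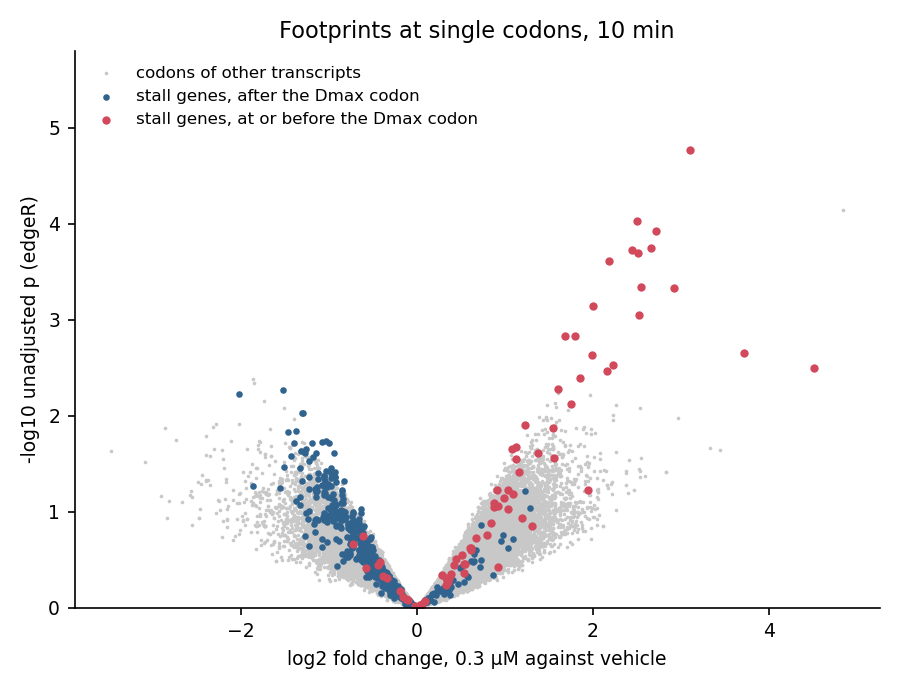
Log2 fold change of footprints at single codons, 0.3 μM against vehicle (x axis), and -log10 of the unadjusted p from edgeR (y axis), for 94996 codons. Red points are the 75 codons of stall genes at or before Dmax, blue points the 497 after it, and grey points all others. Red points make up the upper right, next to a single grey point, codon 11 of FGA, and blue points lie mostly to the left of 0.

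Of the 10 codons called by DESeq2, 1 or 2 per gene are shown with the coding sequence that leads into them, since the compound is known to act while the chain encoded there lies in the exit tunnel of the ribosome. Each line gives 10 codons, 5′ to 3′, from GENCODE transcripts on GRCh38, with the codon tested in capitals as the 9th. Codons are numbered from the start codon by the P-site that the authors inferred.
RPL27 codon 14: aaacctgggaaggtggtgcttgtcCTGgct
RPL27 codon 25: cgctactccggacgcaaagctgtcATCgtg
PCBP1 codon 32: gaagtaggaagcatcattgggaagAAAggg
PCBP2 codon 32: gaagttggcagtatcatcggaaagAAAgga
HSD17B11 codon 16: ctcctgcttctcccgttactgatcGTCtgc
BCAP31 codon 24: gtctttgttgtgttgcttctctgcATTccc
FGA codon 11: tccatgaggatcgtctgcctggtcCTAagt

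Both RPL27 stretches lie in exon 2, at chr17:42998766-42998795 and chr17:42998799-42998828 on the plus strand. The PCBP1 stretch lies in exon 1 at chr2:70087813-70087842 (plus), while that of PCBP2 spans a junction between exon 3 (chr12:53455347-53455370, plus) and exon 4 (chr12:53455461-53455466). HSD17B11 is in exon 1 (chr4:87391020-87391049, minus), BCAP31 in exon 2 (chrX:153723170-153723199, minus) and FGA in exon 1 (chr4:154590652-154590681, minus). The PCBP1 and PCBP2 stretches, which end on the same codon numbers, differ at 6 of 30 bases. The authors kept reads with up to 5 best sites, so reads that match both paralogs can count for each. By the study this ambiguity holds for most reads of PCBP1 and PCBP2.

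PCBP2 codon 32 had the lowest p of the scan. It held 13.8, 19.2 and 13.0 RPM in the 0.3 μM libraries and 1.91, 1.92 and 1.65 RPM in vehicle (log2 fold change 3.10 ± 0.42), without overlap. The same codon number of PCBP1 held 5.83, 6.51 and 6.69 RPM against 1.22, 1.44 and 0.707 RPM (2.51 ± 0.45). In both genes a codon upstream was higher too, at codon 20 of PCBP2 (23.1 ± 6.22 against 4.13 ± 0.753 RPM, SD, n = 3) and codon 21 of PCBP1 (9.4 ± 0.62 against 2.13 ± 0.252 RPM).

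RPL27 had 2 of the called codons. At codon 25 the 0.3 μM libraries held 30.5, 79.1 and 43.3 RPM and the vehicle libraries 6.91, 7.29 and 10.7 RPM, so that the lowest treated value was well over the highest of vehicle (2.66 ± 0.47). At codon 14 they held 4.15, 37.9 and 47.1 RPM against 1.51, 0.721 and 4.95 RPM, where replicate 1 of 0.3 μM lay inside the vehicle range. The 3 libraries of 1.5 μM held 70.3, 131 and 88.3 RPM there.

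HSD17B11 codon 16 held 13.3, 8.09 and 10.0 RPM with 0.3 μM and 1.16, 1.52 and 2.24 RPM in vehicle (2.71 ± 0.46), and 21.7, 20.5 and 18.7 RPM with 1.5 μM. BCAP31 codon 24 held 8.31, 2.88 and 6.69 RPM against 0.580, 0.561 and 1.30 RPM (2.92 ± 0.59), with 3.93, 4.61 and 8.21 RPM at the higher dose.

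FGA, the alpha chain of fibrinogen, a plasma protein of the liver, is on neither list of the study used here. Its codon 11 held 2.18, 5.91 and 3.22 RPM with 0.3 μM and 0.116, 0.240 and 0 RPM in vehicle, 5 reads over the 3 vehicle libraries. It reached the minimum of 20 reads through the 0.3 μM libraries, as did 3 other called codons, HSD17B11 16, PCBP1 32 and BCAP31 24, so that a rise was a condition of their being tested. The DESeq2 adjusted p was 0.00185, while the whole CDS did not differ by more than its error (-0.09 ± 0.17). With 1.5 μM the codon held 7.57, 11.99 and 5.47 RPM. After 60 min it held 2.16, 4.03 and 3.25 RPM with 0.3 μM against 0.156, 0.580 and 0.397 RPM in the vehicle libraries of that time, which are separate from the 6.

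With the replicate number as a block in DESeq2, 6 of the 10 codons passed, and codons 21 and 32 of PCBP1, 31 of PCBP2 and 24 of BCAP31 did not. The codons that were lower with the lowest p were ITIH2 codon 773, PRDX1 codon 3, MDK codon 142, YWHAZ codon 72 and CTNNB1 codon 55, none of which passed the FDR with either tool. MDK codon 142, near the end of its CDS, held 1.48, 2.09 and 1.54 RPM against 4.12, 5.37 and 5.77 RPM, a fall along the same gene whose reads 3′ to the stall were lower.

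**Figure D4:**
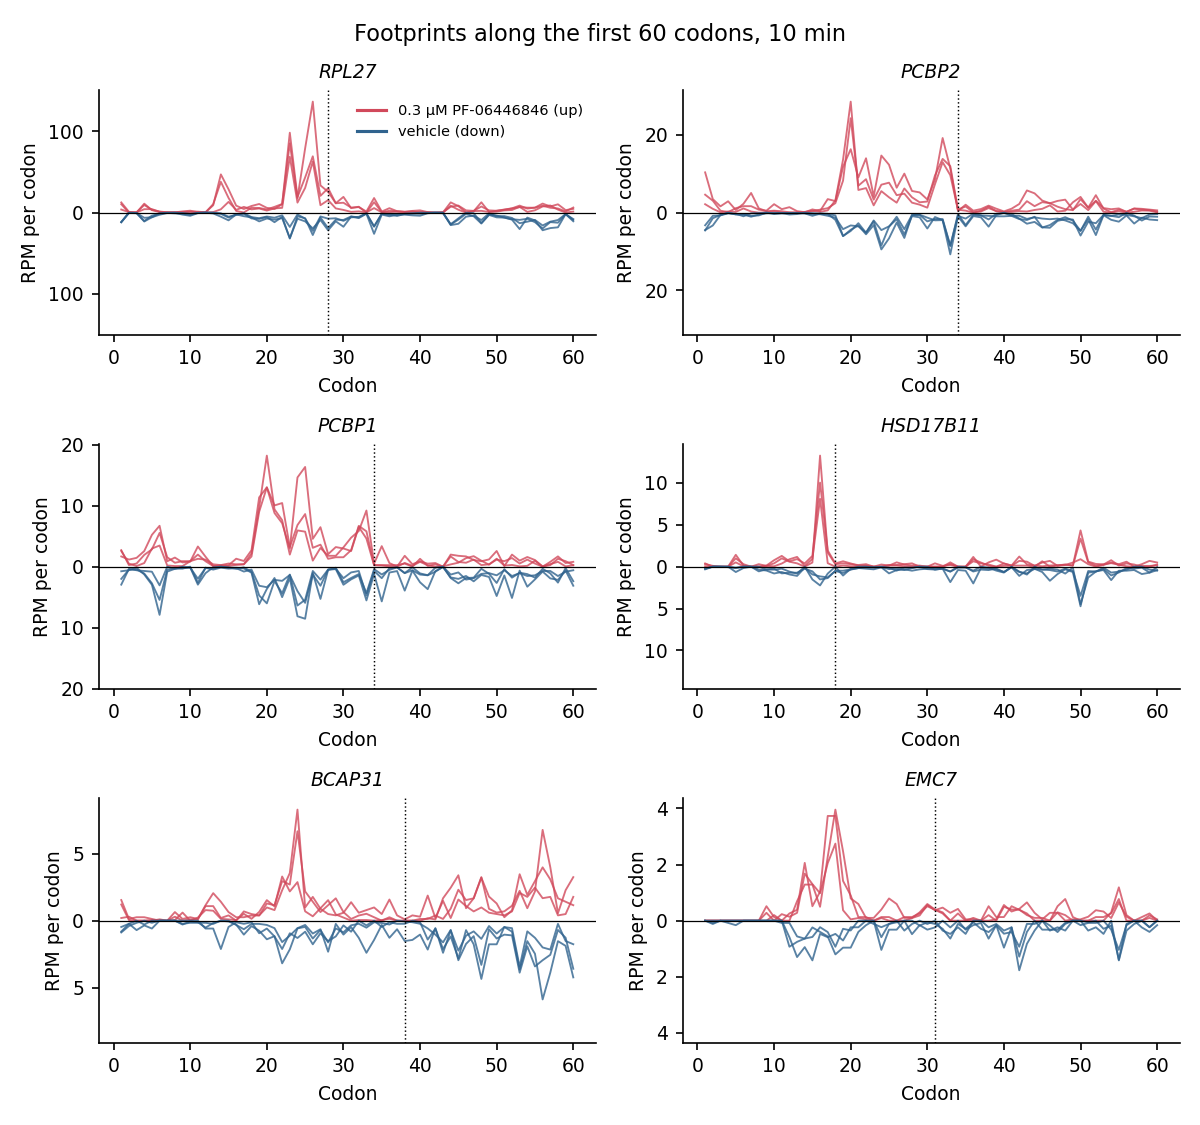
Footprints in RPM along the first 60 codons of 6 stall genes after 10 min (x axis, codon), 3 lines per condition, 0.3 μM drawn upward and vehicle downward on the same scale. The dotted line marks the Dmax codon from the 60-min libraries. The 0.3 μM lines rise before it, at codon 16 of HSD17B11, around codons 20 and 32 of PCBP1 and PCBP2 and around codon 25 of RPL27.

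The codon with the largest rise at or before Dmax in the 60-min libraries of 1.5 μM was examined too. Over that codon and 1 codon on each side, the mean RPM was higher with 0.3 μM in 19 of the 21 stall genes, with a median ratio of 3.00. In 12 genes the groups did not overlap, as in 4.68% of the 8614 transcripts by the same rule. In MDK, PCBP1, CDH1 and some others, the codon so chosen is not the main stall codon that the study lists. RPL27 (codon 23) held 87.0, 114 and 128 RPM against 41.5, 23.0 and 45.4 RPM. PCBP2 (codon 20) held 48.0, 37.2 and 39.5 RPM against 13.8, 11.05 and 13.4 RPM, and EMC7 (codon 17) 6.72, 5.77 and 8.49 RPM against 1.57, 2.16 and 1.53 RPM.

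The groups were also apart in genes whose reads 3′ to the stall overlapped. CD99 (codon 29) held 2.87, 2.70 and 3.34 RPM against 0.870, 0.641 and 0.942 RPM, USO1 (codon 287) 2.27, 3.396 and 2.06 RPM against 1.22, 0.561 and 0.825 RPM, and BCAP31 12.8, 5.77 and 11.6 RPM against 3.19, 2.00 and 3.06 RPM. PODXL2 (0.890, 1.12 and 0.772 RPM against 0.116, 0.160 and 0 RPM) and SUMF1 (0.593, 1.91 and 1.16 RPM against 0.174, 0.160 and 0.471 RPM) were apart as well. In these genes the libraries separated at the codon and overlapped downstream. Of the 2 genes with a lower mean, CDH1 had a ratio of 0.919 at codon 617. The study lists codon 729 as the main stall codon of this gene. With codons taken in the same way from the second set of 60-min libraries of the study, the mean was higher in 20 of the 21 genes and the groups did not overlap in 13, as in 2.75% of all transcripts. CDH1 was then among the 13, at codon 729 (4.845, 5.21 and 5.14 RPM against 1.102, 1.442 and 1.531 RPM), while MDK (4.65, 0.512 and 2.83 RPM against 0.754, 0.160 and 1.89 RPM) and IFI30 (4.65, 0.233 and 2.06 RPM against 0.812, 0.881 and 1.06 RPM) overlapped. The windows of CCR1 and MST1 held 1 read each over the 3 vehicle libraries, and that of PODXL2 held 4.

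The Dmax method of the study was also run on the 6 libraries themselves. Of 10862 transcripts, 382 (3.52%) had a Z-score of at least 2 over bins of 300 transcripts of like depth, and 374 had one with the groups exchanged. Among the stall genes 12 of 21 reached it, and 1 with the groups exchanged. In 6 of the 12, Dmax lay within 10 codons of the 60-min position. With the further demand of fewer reads 3′ to Dmax, edgeR called 0 of 10862 (0%) and DESeq2 5 (0.046%), among them RPL27, MDK, HSD17B11 and EMC7. Here Dmax was placed in the same libraries that were then tested, so a fall after it is partly built in and these calls are a description. For EMC7 the DESeq2 adjusted p was 0.094 at this Dmax and 0.74 at the 60-min position.

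The 5 highest Z-scores were those of ZFHX3, a transcription factor (6.60), RPL27 (6.01, at codon 32), TMA7, a translation-associated protein (5.24), MT-CO3, a mitochondrial subunit of cytochrome oxidase (4.74), and ATP5F1EP2 (4.64). Of these, RPL27 passed with DESeq2 and the other 4 had adjusted p-values of 1.

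The center of density, the mean position of a gene's footprints, was counted in codons, so that long transcripts can shift further than short ones. A mean Z-score beyond 3 was reached by 32 of 10664 transcripts (0.3%), 3 toward the 5′ end (0.0281%) and 29 toward the 3′ end (0.272%), and by 0 of the 21 stall genes. The 32 had a median of 2536 codons, against 423 over all tested. Without taking differences within a replicate number, 220 passed. Among the stall genes, 18 had a center closer to the 5′ end, 14 of them in every pair, as were 51.2% and 10.4% of all transcripts, with a median shift of -12.8 codons beside -0.18 over all transcripts. RPL27 had its center at codons 68.6, 56.0 and 58.8 of 137 with 0.3 μM and at 78.5, 83.3 and 75.4 in vehicle. The largest Z-scores were those of ZFHX3 (-8.35), RNF213 (7.499), a large ubiquitin ligase, APOB (6.98), the structural protein of lipoproteins, RELN (6.01), a matrix protein, and BIRC6 (5.51), an inhibitor of apoptosis. For ZFHX3 the center lay at codons 1893, 1494 and 1430 with 0.3 μM and at 1821, 2400 and 1698 in vehicle, so that the groups overlapped. With the position as a share of the CDS length, the unit of the authors' script, added after seeing the data, 2 of 10664 transcripts (0.0188%) were beyond 3, RPL27 (-4.12) and ATP5F1EP2 (-3.94, with groups that overlapped), both toward the 5′ end. The center of RPL27 then lay at 0.501, 0.409 and 0.429 of its length with 0.3 μM and at 0.573, 0.608 and 0.550 in vehicle. MDK (-2.48), EMC7 (-2.46), HSD17B11 (-2.27) and PCBP2 (-2.14) followed among the stall genes.

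Averaged over 8307 transcripts of at least 200 codons, the 2 conditions overlapped in each measure of where ribosomes lay. The density of codons 2 to 50, relative to the mean of the CDS, was 0.649, 0.698 and 0.704 with 0.3 μM and 0.627, 0.697 and 0.676 in vehicle (difference 0.0171, two-sided exact permutation p = 0.5). At the codon before the stop codon it was 9.36, 12.7 and 12.1 against 9.44, 13.9 and 12.2 (exact permutation p = 0.7), and over codons 10 to 12 before the stop, where a ribosome queued behind one at the stop codon would sit, 1.21, 1.13 and 1.23 against 1.13, 1.15 and 1.2 (exact permutation p = 0.4). With 3 libraries against 3, this test cannot go under 0.1. In the first and second of these measures, replicate 1 of both conditions was the lowest of its group. Within replicate numbers, codons 2 to 50 were higher and the codon before the stop lower with 0.3 μM in 3 of 3 pairs (exact permutation p = 0.25, the smallest that 3 pairs allow), and codons 10 to 12 before the stop were higher in 2 of 3 (exact permutation p = 0.5). As a median over transcripts or with pooled reads, codons 2 to 50 were higher in 2 pairs and each of the other measures in 1, and with at least 100 reads in each library codons 2 to 50 were higher in 2.

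**Figure D5:**
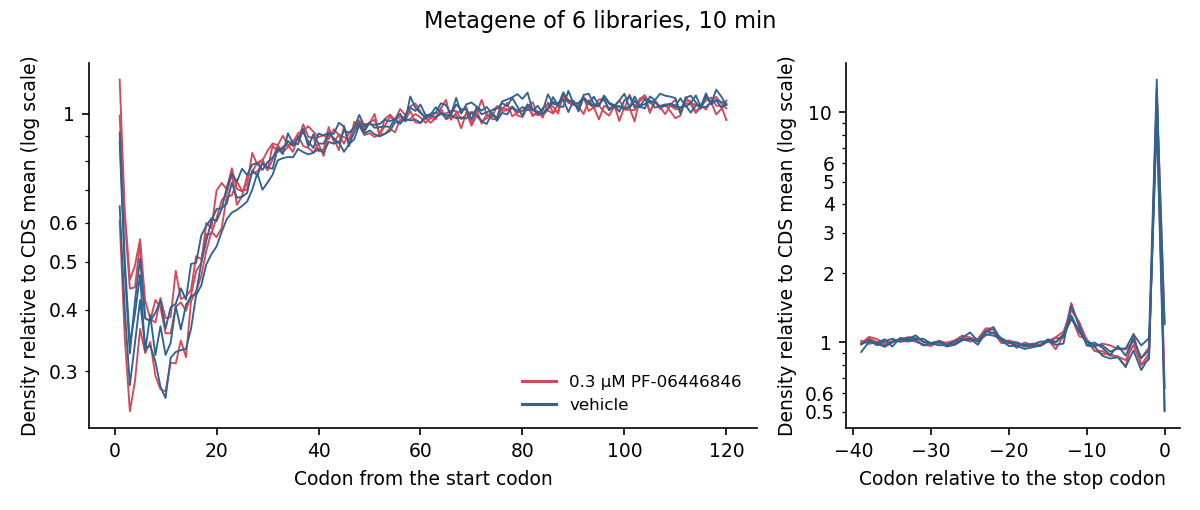
Mean footprint density relative to the CDS mean (y axis, log scale) over the first 120 codons (left) and the last 40 (right) of 8307 transcripts, 1 line per library. The lines of 0.3 μM and vehicle run over each other, with the peak at the codon before the stop at 9.36 to 13.9.

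Single kinds of codon in the P-site were compared as well. Over 8502 transcripts, the occupancy of 61 sense codons between codon 51 and 20 codons before the stop gave 0 codons (0%) at an FDR of 0.1 with limma and 0 at an unadjusted p under 0.05. The largest log2 difference in size was that of CCG (-0.20 ± 0.21). Without 0.3 μM replicate 1 it was -0.44 ± 0.11 and passed, as the only codon of the 61.

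Of the gene groups examined over the whole CDS, none held a transcript past the FDR with edgeR or DESeq2, and the stall genes alone had a median further than 0.1 below 0 (-0.25, with 20 of 21 lower and 7 lower at an unadjusted p under 0.05, beside 0.62% of all transcripts). Among 49 proteins of the large ribosomal subunit, 26 were lower and 23 higher, from RPL24 (-0.28) and RPL39 (-0.27) to RPL34 (0.20) and RPL10L (0.25). The 30 of the small subunit had 12 lower and 18 higher, from RPS20 (-0.39) and FAU (-0.13) upward, with RPS21 (0.19) and RPS29 (0.32) among the highest. The highest value of this list was 0.49, in a member not named here.

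The factors of translation had medians within 0.1 of 0. For the counts of higher members here and below, 5730 of all 11131 transcripts were higher. Of 12 elongation factors 10 were higher (median 0.08), from TSFM (-0.19) and GFM2 (-0.01) to EEF1B2 (0.23) and EEF1D (0.33). Of 31 initiation factors 25 were higher (median 0.04), from EIF4G1 (-0.26) and EIF2S2 (-0.11) to EIF4E (0.18) and EIF3F (0.23). The 22 factors of ribosome rescue and quality control, which clear stalled ribosomes, had 9 lower and 13 higher, from ANKZF1 (-0.21) and GIGYF2 (-0.17) to VCP (0.14) and GCN1 (0.18). None of these 3 groups held a member at an unadjusted p under 0.05. The libraries did not overlap in the initiation factors EIF3F (173, 207 and 195 CPM against 168, 154 and 168 CPM), EIF3G and EIF2B2, the latter pair named after their values were seen, and in GCN1, all higher with 0.3 μM, as in 1.99% of all transcripts.

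Stress and early response genes had medians near 0 too. Of 22 genes of the integrated stress response, 10 were lower and 12 higher (median 0.03), and 1 had an unadjusted p under 0.05, as had 0.934% of all transcripts. It was EIF2AK2, the kinase PKR, at -0.31. CEBPB followed at -0.24, and PPP1R15A (0.30) and VLDLR (0.45) were the highest. The 20 immediate early factors ranged from ATF3 (-0.27) and JUND (-0.22) to NR4A2 (0.13) and EGR1 (0.21), and 21 ER chaperones from DNAJB11 (-0.20) and DNAJC3 (-0.15) to SDF2L1 (0.19) and ERP29 (0.20).

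Liver products were counted in the same way. Of 24 genes of cholesterol synthesis and its control, 18 were higher (median 0.05), from HSD17B7 (-0.23) and MSMO1 (-0.12) to EBP (0.14) and SCAP (0.17). The 19 hepatocyte plasma proteins ranged from APOC3 (-0.14) and FGA (-0.09) to VTN (0.13) and FGB (0.15). Outside these, 53 core histones ranged from H3C12 (-0.17) and H3C14 (-0.11) to H4C5 (0.26) and HIST1H2BN (0.44). Histone genes are near copies, so a read that matches several can count for each or, above 5 sites, for none.

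The 13 mitochondrially encoded genes were all higher (median 0.38), from MT-ATP8 (0.02) and MT-ND1 (0.25) to MT-ND6 (0.57) and MT-ND4L (0.71), with 0 at an unadjusted p under 0.05. Their summed level was 575, 4694 and 1869 RPM with 0.3 μM and 752, 2860 and 1744 RPM in vehicle. The spread within each condition was larger than the difference, and in both conditions replicate 1 was the lowest and replicate 2 the highest.

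A further 24 genes were listed by the study for the 10-min treatment at 1.5 μM and not for 60 min. That list was drawn up with the same vehicle libraries. The Dmax codons after which its reads were counted came from these vehicle libraries and 1.5 μM after 10 min. Its direction at 0.3 μM is therefore no independent evidence. All 24 were lower with 0.3 μM in the reads 3′ to those codons (median log2 fold change -0.23, with -0.75 at 1.5 μM). With edgeR, 5 of them were lower at an unadjusted p under 0.05, beside 0.737% of all transcripts, and 0 passed the FDR. TM2D3 read 19.5, 22.2 and 23.0 CPM against 31.8, 23.4 and 41.5 CPM (-0.57 ± 0.19, with -1.45 ± 0.22 at 1.5 μM). PAG1, an adaptor in lymphocyte signalling, gave -0.55 ± 0.24 and -1.31 ± 0.26, STBD1, a glycogen-binding protein, -0.43 ± 0.16 and -1.25 ± 0.16, and CDO1, the first enzyme of cysteine breakdown, -0.26 ± 0.15 and -1.40 ± 0.20.

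The doses were compared directly, 1.5 μM against 0.3 μM after 10 min, without vehicle. All 21 stall genes had fewer reads 3′ to the stall at 1.5 μM (median log2 fold change -0.88, beside 0.00 over all transcripts), and 10 passed the FDR with edgeR, beside 14 lower calls among 10738 transcripts (0.13%). The 10 were HSD17B11 (-1.45 ± 0.12), RPL27 (-1.23 ± 0.12), MST1 (-1.16 ± 0.21), CDH1 (-1.10 ± 0.16), PCBP1 (-1.07 ± 0.10), USO1 (-1.06 ± 0.12), MDK (-0.97 ± 0.14), PCBP2 (-0.94 ± 0.12), SUMF2 (-0.91 ± 0.17) and CD99 (-0.77 ± 0.14). IFI30 differed least (-0.33 ± 0.19). With the replicate number as a block 18 of the 21 passed, beside 0.922% of all transcripts called lower, and with DESeq2 15, beside 0.603%. Without 1.5 μM replicate 1, 2 or 3 the edgeR count was 4, 5 and 5.

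Side by side, against the same vehicle libraries, the median log2 fold change of the 21 was -0.42 at 0.3 μM and -1.31 at 1.5 μM, where 20 of 21 passed the FDR (1.44% of all transcripts were lower calls there). HSD17B11 went from -0.73 ± 0.14 to -2.19 ± 0.14 and RPL27 from -0.69 ± 0.13 to -1.92 ± 0.12.

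The effect of 0.3 μM was also measured after 60 min. Then, against the vehicle libraries of that time, all 21 stall genes had fewer reads 3′ to the stall, with a median log2 fold change of -0.37, and 14 were lower at an unadjusted p under 0.05, beside 0.589% of all transcripts. With edgeR 0 of 10870 (0%) passed the FDR. These vehicle libraries also served to choose the stall genes and their positions, so the direction after 60 min is no independent evidence. The same limit applies to the size of the effect after 60 min, to its difference from 10 min and to the 60-min share up to Dmax. The difference of the effect between 10 and 60 min was tested as an interaction over 12 libraries, and 0 of 11013 transcripts (0%) passed, at 171 (1.55%) with an unadjusted p under 0.05, of which 0 were stall genes. The median difference over the stall genes was -0.05. For MDK it was -0.25 ± 0.23, for RPL27 -0.16 ± 0.18, for HSD17B11 -0.19 ± 0.22 and for PCBP1 -0.05 ± 0.14. The share of reads up to Dmax had a median of 23.3% after 60 min with 0.3 μM and 11.6% in its vehicle.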

How the data were processed

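The authors trimmed adapters, removed rRNA reads, aligned the rest with Bowtie 1.1.2 (per the submitters' processing notes, GRCh38) to 1 isoform per expressed gene, chosen with kallisto 0.42.5, and deposited counts of reads per codon, without normalization. Here 12325 transcripts were used, 11270 named from GENCODE.

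Counts were tested with edgeR 4.0.16 (filterByExpr, TMM, quasi-likelihood, FDR 0.1) in R 4.3.3, with DESeq2 1.42.0 as the alternative, and codon occupancy with limma 3.58.1. SE of fold changes come from edgeR unless named. Single codons needed a mean of 20 reads and used the scaling of the CDS table. CPM are scaled by TMM and RPM by CDS reads. Dmax and the Z-scores, taken over the root mean square of a bin, followed the authors' scripts, while center of density was counted in codons where their script divides by CDS length. The steps were tested on simulated data.

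Deviations from group means correlated most between same-numbered libraries (0.208, 0.154 and 0.532 over 9818 transcripts). Replicate 3 stood apart, while 0.3 μM replicate 1 gave 0.137 with vehicle replicate 2, so the pairing of replicates 1 and 2 is less sure. The tests of counts took no account of the numbers unless a replicate block is named. Replicates of a condition differed by more than sampling noise. Named genes were the 21 stall genes, the 5 lowest p in each direction of a fit (mean of at least 50 reads, 1 direction in every pair), the 5 highest scores and the extremes of each list. Codons called by DESeq2 were added after their values were seen. Members, lists and rules were chosen with earlier results of these data known. Some items are not reported here. The mRNA-seq libraries were not used. Leaving out libraries, filters, scalings and windows were the alternatives.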

Additional observations from a re-analysis of the deposited data

How the results depend on the processing

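Against vehicle, DESeq2 changed 3 counts: it called 3 of the 21 stall genes by reads 3′ to the stall, 5 Dmax genes and 10 single codons where edgeR called 0, and 3, 4 and 7 with the replicate block, an alternative added after seeing the data. The replicate block in edgeR changed no call against vehicle, and raised the dose comparison from 10 to 18 of the 21 genes and from 20 to 236 of all transcripts (102 with DESeq2). For center of density, a Z-score minimum of 2.5 gave 53 transcripts and no replicate block gave 220, in place of 32, and positions as a share of the CDS length gave 2. The median log2 ratio at the stall codon (1.57, pseudocount 0.1 RPM) was 1.20 with 3 codons on each side, 1.84 as a share of CDS reads and 0.88 as the share up to Dmax, the last chosen after seeing the data. Leaving out 1 library gave 1.40 to 1.64. The density of codons 2 to 50 turned to -0.0012 as a median over transcripts, and that of codons 10 to 12 before the stop to -0.125 as a median and -0.0085 with pooled reads. Leaving out 1 library, the first ranged from -0.0027 to 0.0346 and the density before the stop codon from -1.67 to 0.554. By the same, the dose comparison called 4 to 11 stall genes, codon occupancy 0 to 1, and log2 fold changes 3′ to the stall ranged from -0.244 to 0.0704 for USO1, -0.245 to 0.0278 for SUMF1 and -0.113 to 0.285 for IFI30. Of 424 recomputed values of 31 genes, 413 kept direction and side of the FDR, 6 newly passed it and 5 reversed. The cause of these changes was not tested. Leaving out 1 library, transcripts at an unadjusted p under 0.05 numbered 85 to 385 in place of 104 (CDS) and 92 to 420 in place of 117 (3′ to the stall), and codons 176 to 8837 in place of 716, the highest without 0.3 μM replicate 1, with 0 past the FDR. With the replicate block, edgeR gave 170, 164 and 313 in place of 104, 117 and 716. DESeq2 with the block gave 35, 39 and 363 in place of 58, 78 and 874. A mean of at least 10 or 50 reads gave 2422 and 128 codons.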
